A study of Mus musculus with 29 samples.

Results

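The 10 genes described here encode core parts of the Polycomb complexes and the enzymes that remove the mark they write: Ezh1, Ezh2, Eed and Suz12 of Polycomb repressive complex 2 (PRC2), Ring1, Rnf2, Pcgf1 and Bmi1 of Polycomb repressive complex 1 (PRC1), and the H3K27 demethylases Kdm6a and Kdm6b. They were taken by symbol, and all 10 were found among the 24448 gene rows of the count table. RNA was read from 29 single libraries of BDF1 mice. Control embryos (9 libraries) were made by injecting a cumulus cell nucleus into an enucleated oocyte, were activated for 6 h in KSOM medium with 10 mM strontium, CB and EGTA, and were cultured without hydroxyurea. HU embryos (8 libraries) were made in the same way and spent 24 h in 10 uM hydroxyurea, an inhibitor of ribonucleotide reductase that starves DNA replication of nucleotides, before fresh medium without it. Both groups were taken as whole embryos at the 2-cell stage, 28 h after activation. The remaining 12 libraries are single cumulus cells, the somatic cells around the oocyte that served as nuclear donors. All embryos are therefore clones of somatic nuclei, and no fertilised embryo is among the groups.

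Gene counts per library ran from 1801261 to 3472116 in control embryos, from 2442541 to 3757492 in HU embryos and from 317195 to 4051494 in cumulus cells. The 45S pre-rRNA Rn45s took 15.2% to 32.5% of them in embryos and 49.3% to 86.6% in cumulus cells, which lowers the share left for every other gene. HU 4 had the fewest detected genes of the embryos (12887). Marker genes followed the labels: 15 cumulus and granulosa markers summed to 378 to 11534 CPM (gene counts scaled to a common library total) per cumulus cell and to 23.4 to 143 CPM per embryo. The 12 oocyte and early embryo markers summed to 0 to 47.0 CPM per cell, with 7 of them at 0 in all cells, and to 2895 to 6123 CPM per embryo. Of markers of other cells, all 4 erythroid globin genes were without a count in every library, and the 5 immune markers reached 154 CPM in 1 cumulus cell. No label names the animal or culture behind a library, so the p-values speak only of the spread among these embryos, which may be technical.

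Polycomb proteins keep genes silent through histone marks. PRC2 methylates lysine 27 of histone H3 through its catalytic subunit EZH1 or EZH2, which works only together with EED and SUZ12, and PRC1 attaches ubiquitin to histone H2A through RING1 or RNF2 paired with a PCGF protein such as PCGF1 or BMI1. KDM6A and KDM6B take the methyl groups off again. In early mouse embryos H3K27me3 inherited from the oocyte silences some maternal alleles, and donor cumulus nuclei are known to lack that oocyte pattern.

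The upstream sequences of both catalytic pairs are shown because the members of each pair differed in level within embryos and cells. Each is the 250 bases before the RefSeq start (GRCm38.p6), 5′ to 3′ on the gene's strand, with CG dinucleotides in capitals. The Ezh2 window lies inside the GENCODE M21 gene (chr6:47530139-47595341), whose start is further upstream. For Rnf2 the bases just after the RefSeq start matched no GENCODE M21 transcript of the gene, so its start is less certain. Ezh1 (chr11:101226464-101226713, minus strand), Ezh2 (chr6:47595031-47595280, minus strand), Ring1 (chr17:34024681-34024930, minus strand) and Rnf2 (chr1:151500992-151501241, minus strand) read as follows.
Ezh1: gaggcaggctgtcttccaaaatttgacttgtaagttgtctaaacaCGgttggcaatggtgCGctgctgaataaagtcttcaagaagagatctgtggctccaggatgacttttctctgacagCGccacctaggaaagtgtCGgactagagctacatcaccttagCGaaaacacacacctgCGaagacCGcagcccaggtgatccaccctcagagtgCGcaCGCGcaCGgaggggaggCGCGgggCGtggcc
Ezh2: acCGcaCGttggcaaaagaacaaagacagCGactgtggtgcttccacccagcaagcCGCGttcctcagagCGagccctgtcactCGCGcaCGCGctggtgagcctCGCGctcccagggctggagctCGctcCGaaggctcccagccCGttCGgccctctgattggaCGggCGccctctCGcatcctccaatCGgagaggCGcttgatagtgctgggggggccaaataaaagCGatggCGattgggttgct
Ring1: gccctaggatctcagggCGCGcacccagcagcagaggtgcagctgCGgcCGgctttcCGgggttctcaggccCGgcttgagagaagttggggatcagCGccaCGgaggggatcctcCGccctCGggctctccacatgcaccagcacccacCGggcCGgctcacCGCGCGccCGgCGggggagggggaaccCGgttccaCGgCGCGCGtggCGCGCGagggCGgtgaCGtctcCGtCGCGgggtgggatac
Rnf2: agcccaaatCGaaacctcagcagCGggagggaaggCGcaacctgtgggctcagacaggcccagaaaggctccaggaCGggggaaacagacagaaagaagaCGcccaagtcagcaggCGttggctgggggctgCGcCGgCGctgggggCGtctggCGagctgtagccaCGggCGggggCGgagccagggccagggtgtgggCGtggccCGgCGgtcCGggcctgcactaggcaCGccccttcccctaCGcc
The Ezh1 window holds 14 CG dinucleotides, the Ezh2 window 23, the Ring1 window 30 and the Rnf2 window 20, against a median of 6 over 32851 RefSeq windows of 250 bases. Windows with at least as many made up 29.4%, 13.3%, 5.94% and 17.9% of them, in that order. RefSeq windows were matched for 8 of the 10 genes, with 12 CG in Eed, 15 in Kdm6a, 21 in Bmi1 and 37 in Suz12, while Kdm6b and Pcgf1 had none in the table. All 8 windows thus lay above the median. The letters TATAAA, searched on both strands, are in 0 of the 8 windows and in 12.4% of all windows, and the E2F-type letters TTTNGCGC are in 0 of the 8 and in 1.13% of all. The Ring1 window, of the gene with almost no counts in embryos, has the second highest CG count of the 8.

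Levels of different genes were compared per length, in the deposited FPKM (counts scaled to gene length and library total). In control embryos Bmi1 stood highest at 195 ± 23.9 FPKM (SD, n = 9). Pcgf1 (104 ± 15.9 FPKM), Rnf2 (99.5 ± 24.3 FPKM), Suz12 (96.7 ± 25.4 FPKM) and Ezh2 (79.6 ± 9.97 FPKM) followed, and neighbours among these did not differ beyond their spread. Eed stood at 37.5 ± 8.13 FPKM, Kdm6a at 23.2 ± 6.63 FPKM, Ezh1 at 16.4 ± 4.95 FPKM and Kdm6b at 9.22 ± 1.39 FPKM, each set apart from the next by more than the larger SD. Ring1 came last at 0.133 ± 0.293 FPKM. PRC1 genes thus hold both ends of the order. Of the catalytic writers of the mark, Ezh2 lay above both erasers and Ezh1 between Kdm6a and Kdm6b. HU embryos gave Bmi1 at 200.5 ± 35.9 FPKM (SD, n = 8) and Ring1 at 0.211 ± 0.417 FPKM. Between them the HU order was Suz12, Rnf2, Ezh2, Pcgf1, Eed, Kdm6a, Ezh1 and Kdm6b. Pcgf1 took the fifth place in HU in place of the second, among genes that did not differ beyond their spread, and Kdm6a and Ezh1 were not set apart there.

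**Figure D1:**
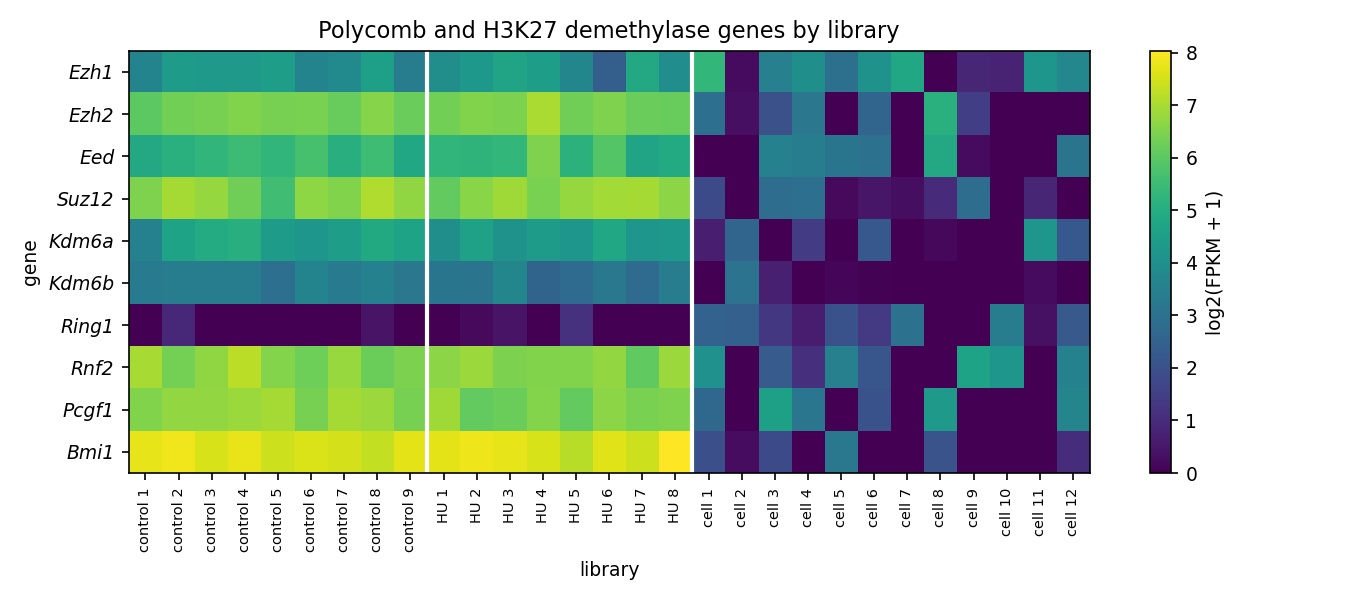
Level of the 10 genes in each of the 29 libraries as log2(FPKM + 1), with white lines between control embryos, HU embryos and cumulus cells. Bmi1 is the brightest row and Ring1 the darkest in embryos, while in cumulus cells most rows are dark and Ring1 has counts in 10 of 12 cells.

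For HU against control the values are TMM-scaled CPM, that is, CPM after a scaling that makes most genes level between embryos, and the test is the edgeR quasi-likelihood test fitted over 11476 genes. Each embryo library mixes the cells of its embryo and RNA left from the oocyte with RNA made by the embryo, and these cannot be told apart. No member passed: 0 of the 9 members tested had an adjusted p under 0.05, beside 0 of all genes (0%). At an unadjusted p under 0.05 there were 0 of 9 members, beside 669 genes (5.83%), 419 higher and 250 lower in HU. DESeq2 called 3 of all genes and limma-voom 0, and both called 0 members. The median log2 fold change was 0.04 over the 9 members and 0.03 over all genes, with 5 members above and 4 below 0.

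Ezh2 (chr6:47530139-47595341, minus strand; gene positions are those of GENCODE M21 on GRCm38), the methyltransferase subunit typical of dividing cells, had 174 CPM in the lowest, 219.9 CPM in the median and 236 CPM in the highest control embryo. In HU embryos these were 177, 221 and 354 CPM. The groups overlap, with 3 HU embryos above the highest control and HU 4 far above the others. The change, as log2 of HU over control, was 0.15 ± 0.15 (SE; edgeR adjusted p = 0.906), and 0.04 without HU 4. Its paralog Ezh1 (chr11:101191115-101226463, minus strand), the subunit typical of resting cells, had 48.5, 75.3 and 85.3 CPM in the lowest, median and highest control embryo and 20.0, 69.5 and 133 CPM in HU embryos. HU embryos lay on both sides of the control range, 3 above and 2 below it, for a log2 fold change of Ezh1 of 0.13 ± 0.27 (SE; edgeR adjusted p = 0.959).

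Eed (chr7:89954654-89980983, minus strand), whose protein reads methylated H3K27 and stimulates the enzyme, had 61.1, 72.0 and 109 CPM in the lowest, median and highest control embryo and 56.6, 74.5 and 189 CPM in HU embryos. Of the HU embryos 2 lay above and 2 below the control range, and HU 4 was, as for Ezh2, the highest of all embryos. Eed had a log2 fold change of 0.25 ± 0.23 (SE; edgeR adjusted p = 0.889), and 0.02 without HU 4. Suz12 (chr11:79993106-80034123, plus strand), the scaffold subunit, had 188, 455 and 555 CPM in the lowest, median and highest control embryo and 305, 421 and 620.5 CPM in HU embryos. Control 5 alone was below every HU embryo, and 2 HU embryos were above every control. Suz12 had a log2 fold change of 0.09 ± 0.19 (SE; edgeR adjusted p = 0.959), and -0.0082 without control 5.

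Among PRC1 genes, Bmi1 (chr2:18677018-18686629, plus strand), which encodes the PCGF4 subunit of canonical PRC1, had 504, 716 and 918 CPM in the lowest, median and highest control embryo and 469, 737 and 878 CPM in HU embryos. The groups cover nearly the same range, with HU 5 the only HU embryo below the controls, and the log2 fold change was 0.04 ± 0.15 (SE; edgeR adjusted p = 0.978). Pcgf1 (chr6:83077869-83080855, plus strand), whose protein forms a variant PRC1 with KDM2B at unmethylated CpG islands, had 75.1, 90.4 and 99.9 CPM in the lowest, median and highest control embryo. HU embryos had 54.1, 78.3 and 107 CPM, and 4 of 8 were below the lowest control while 1 was above the highest. Pcgf1 had a log2 fold change of -0.24 ± 0.17 (SE; edgeR adjusted p = 0.873).

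Rnf2 (also called Ring1B; chr1:151458004-151500955, minus strand) encodes the main H2A ubiquitin ligase of mouse embryonic cells. It had 202, 309 and 424 CPM in the lowest, median and highest control embryo and 232, 299 and 346 CPM in HU embryos. All HU embryos lay inside the control range, and the log2 fold change was -0.05 ± 0.16 (SE; edgeR adjusted p = 0.977). Ring1 (chr17:34020792-34024680, minus strand), its paralog, was at or near 0: 2 of 9 control embryos had counts (4 in control 2 and 2 in control 8) and so did 3 of 8 HU embryos (1 in HU 2, 2 in HU 3 and 6 in HU 5). It did not pass the filter on low counts. Tested without that filter, its log2 fold change was 0.52 ± 1.22 (SE; edgeR adjusted p = 0.942). At this depth a difference in Ring1 between the groups was not detectable.

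The demethylase genes encode the enzymes that remove the mark. Kdm6a (UTX; chrX:18162575-18279936, plus strand) had 58.8, 124 and 160.3 CPM in the lowest, median and highest control embryo and 80.4, 99.0 and 153 CPM in HU embryos. Only 1 of 8 HU embryos exceeded the control median, yet all lay inside the control range, and the log2 fold change was -0.22 ± 0.20 (SE; edgeR adjusted p = 0.893). Kdm6b (JMJD3; chr11:69398508-69413675, minus strand) had 40.1, 63.0 and 78.7 CPM in controls and 35.0, 50.5 and 74.7 CPM in HU embryos. Again 1 of 8 HU embryos exceeded the control median, and 2 were below the lowest control. Kdm6b had a log2 fold change of -0.25 ± 0.20 (SE; edgeR adjusted p = 0.877). The Y-linked homolog Uty, had 0 counts in all embryos and cells.

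**Figure D2:**
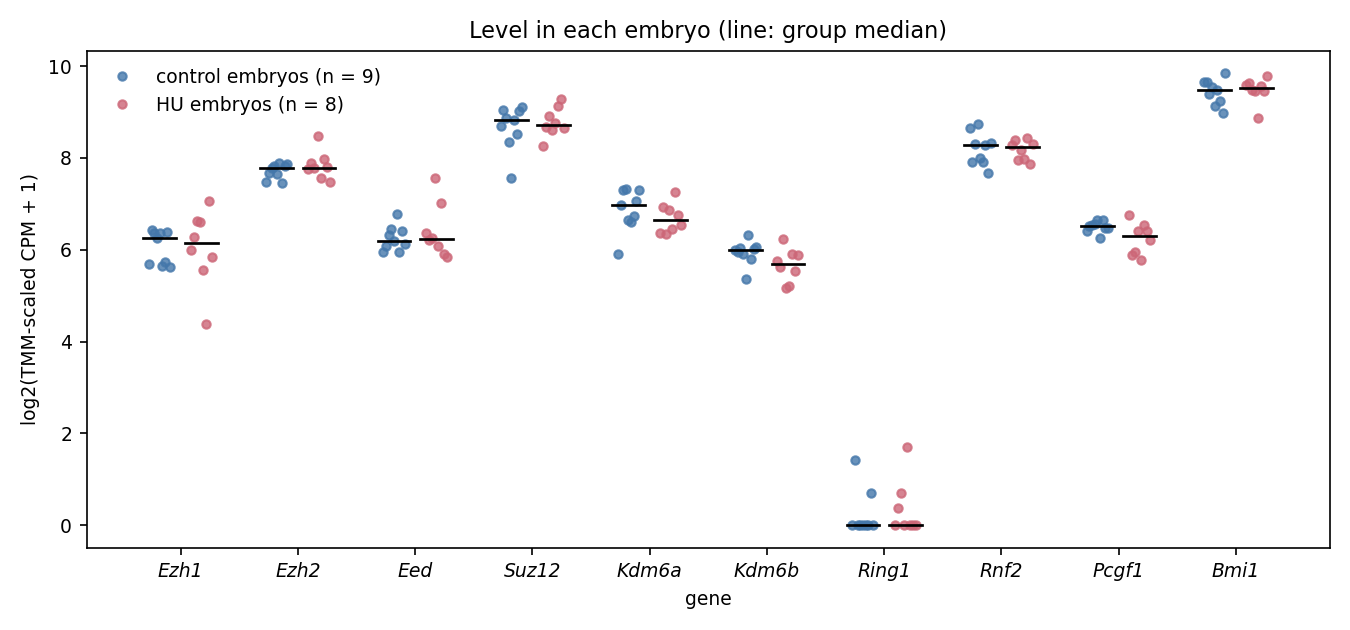
TMM-scaled CPM of each gene in each embryo on a log2(CPM + 1) axis, control (blue) beside HU (red), with a line at the group median. The groups overlap for all 10 genes, HU 4 stands out for Ezh2 (354 CPM), and Ring1 is at 0 in most embryos.

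The 95% interval of the log2 fold change stayed within a 2-fold change both ways for all 9 tested members. The lowest bound was -0.66, for Kdm6b, and the highest was 0.74, for Eed, that is 0.633-fold and 1.67-fold. These intervals are per gene and not adjusted for the number of genes. The groups did not overlap for 0 of 9 members, beside 1 of the 11476 genes (0.00871%). In data simulated from these embryos, the same fit recovered 20.8% of genes changed 2-fold and 81.6% of genes changed 4-fold. The changed genes were drawn at random from all genes past the filter, so these shares are not specific to the members. A missed threshold at this number of embryos thus does not show that a gene was level. For the 9 tested members the bounds on the change are the intervals above. With scaling to the ERCC spike-in RNAs all genes had a median of 0.19 on the log2 scale, and genes at an unadjusted p under 0.05 split into 629 higher and 27 lower. No member passed there either, and Rnf2 took the other sign, at 0.15.

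**Figure D3:**
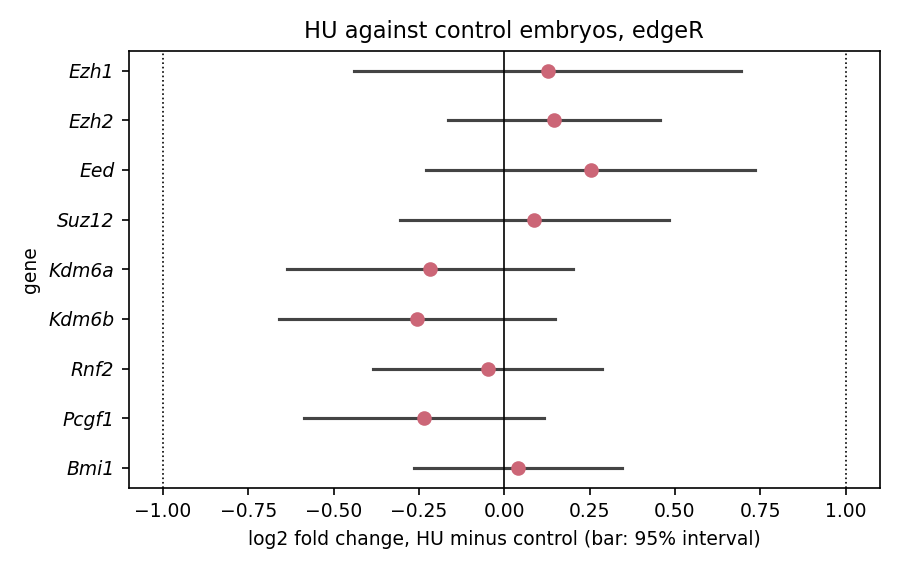
Log2 fold change of the 9 tested genes, HU minus control, from edgeR, with bars for the 95% interval and dotted lines at a 2-fold change. All intervals hold 0 and none reaches a dotted line.

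Members differed in how evenly the embryos carried them. The coefficient of variation (CV, SD over mean) between control embryos was lowest for Pcgf1 (8.52%), with Ezh2 next. The counting error alone would give 6.47% for Pcgf1 and 4.25% for Ezh2. Genes within 2-fold of the same level had a median CV of 30.4% and 24.4%, so both members were more even between control embryos than the typical gene of their level. Kdm6a (28.5%) and Suz12 (27.7%) varied most of the 9, the latter beside 21.3% for genes of its level. In HU embryos the CV was 23.9% for Pcgf1, 23.3% for Ezh2, 49.8% for Eed and 47.9% for Ezh1. Genes of those levels had medians of 36.9%, 30.4%, 35.6% and 37.2%. Eed and Ezh1 were thus above the typical gene in HU embryos and below it in controls (19.8% and 24.7%, beside 31.7% and 32.7%). These differences were not tested, and single embryos weigh on them. For Eed, HU 4 had 189 CPM beside a HU median of 74.5 CPM. Ezh1 ran from 20.0 CPM in HU 6 to 133 CPM in HU 7. The CV without such embryos was not taken. The 10 genes summed to 2057 ± 251 CPM in control embryos (SD, n = 9) and 2096 ± 223 CPM in HU embryos (SD, n = 8). The lowest sums were 1596 CPM in control 5 and 1631 CPM in HU 5, where 0 of 9 members exceeded the control median. HU 6 had 7 of 9 above it.

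Patterns across the 17 embryos were ranked for Ezh2 and Kdm6b over 8541 genes at 10 CPM or more. The gene ranking the embryos most like Ezh2 was Eed, with a rank likeness of 0.76 (1 is the same order), followed by the PRC1 gene Yaf2 (0.74) and the histone deacetylase gene Hdac2 (0.74). For Kdm6b they were Trim39 (0.79), Mpdz (0.78) and Sptbn1 (0.77). These are the highest of many values, over libraries that share depth and scaling, and are a description only.

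PRC2 can be built with EZH1 or EZH2, and PRC1 with RING1 or RNF2. Bmi1 and Pcgf1 encode PCGF subunits of different forms of PRC1, and Kdm6a and Kdm6b encode demethylases outside these complexes. The genes of each pair were set against each other within each library. Ezh2 was above Ezh1 per length in 9 of 9 control embryos, by 5.05-fold (log2 ratio 2.34 ± 0.38, SD, n = 9). It was also above in 8 of 8 HU embryos, by 5.56-fold (2.48 ± 0.85, SD, n = 8), with the widest ratio, 19.9-fold, in HU 6, the embryo with the lowest Ezh1. In cumulus cells the order was the other way in 9 of 12 cells, and among the 6 cells with counts of both the log2 ratio ran from -2.56 to 1.19. Ezh2 thus led in every embryo and Ezh1 in most cells. Rnf2 was above Ring1 in all 17 embryos. Both had counts in only 2 control and 3 HU embryos, where the ratio ran from 74.9-fold to 744-fold. In the 7 cumulus cells with both it ran from 1.90-fold to 3.36-fold, and Ring1 was above Rnf2 in 3 of 12 cells.

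Bmi1 was above Pcgf1 in 9 of 9 control embryos, by 1.88-fold (log2 ratio 0.91 ± 0.34, SD, n = 9), and in 8 of 8 HU embryos, by 2.33-fold (1.22 ± 0.33, SD, n = 8). In cumulus cells Pcgf1 was above Bmi1 in 6 cells and below it in 2, with neither seen in 4. Kdm6a was above Kdm6b in 9 of 9 control embryos, by 2.44-fold (1.28 ± 0.51, SD, n = 9), and in 8 of 8 HU embryos, by 2.59-fold (1.37 ± 0.52, SD, n = 8). In cumulus cells Kdm6a was above in 6 cells and Kdm6b in 3. Pairs of PRC2 and PRC1 genes thus had a fixed leader in all embryos and no fixed leader in the cells. Some leads in the cells rest on 1 count: in cell 2 Bmi1 had 1 count and Pcgf1 had 0. Ezh1 and Ezh2 had 1 count each in that cell, so gene length alone set their order. The part of such low counts in the contrast was not tested.

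**Figure D4:**
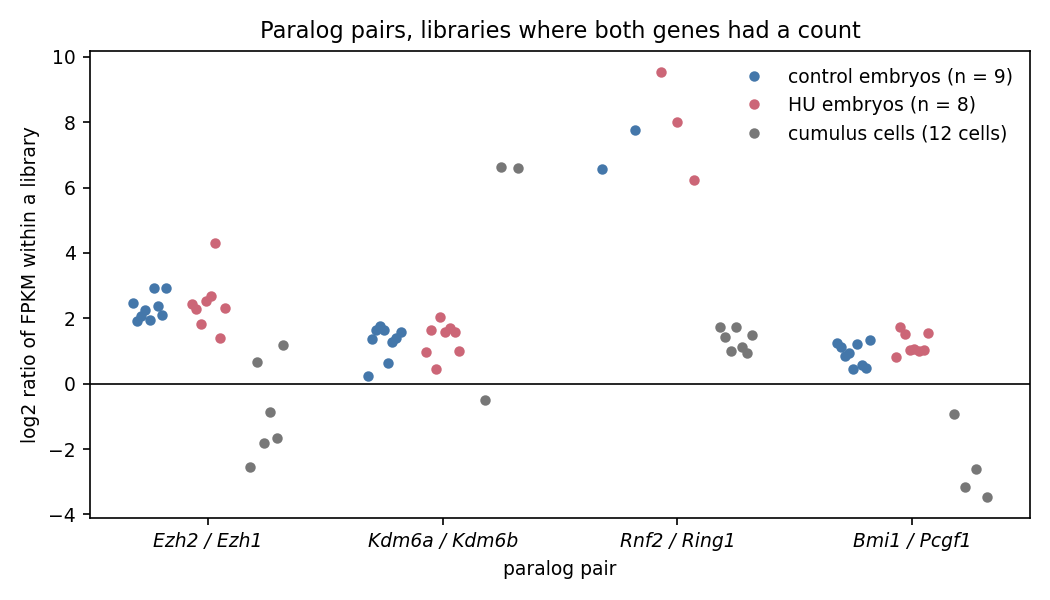
Log2 ratio of FPKM within each library for 4 paralog pairs, in libraries where both genes had a count (control blue, HU red, cumulus cells grey). Embryos lie above 0 for every pair, and most cumulus cells lie below 0 for Ezh2 over Ezh1 and for Bmi1 over Pcgf1.

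Cumulus cells were set against control embryos to ask which Polycomb transcripts differ between the donor cell type and the cloned embryo. The 12 cells count as 1 sample, so there is no test. Their counts were summed, the interval is an exact Poisson interval at 95% that covers counting error only, and the background is the 10051 genes with at least 10 CPM in the cells or in control embryos. Of the 9 members at that level, 8 were at least 2-fold lower in cumulus cells, beside 5509 genes (54.8%), and 0 were at least 2-fold higher, beside 1748 (17.4%). Bmi1 (5.32 CPM in the cells), Pcgf1 (5.86 CPM) and Kdm6b (3.45 CPM) reached 10 CPM only in the embryos. Ring1, higher in the cells at 4.66 CPM, reached it in neither, so both counts depend on this filter. The median log2 ratio, with 1 CPM added to both sides, was -3.75 for the 9 members and -1.25 for all genes. Without Rn45s and mitochondrial genes in the total, and over the same genes, these medians were -2.93 and -0.35. There 8 of the 9 were again at least 2-fold lower, beside 3967 genes (39.5%), and 0 higher, beside 2866 (28.5%). Ring1 is not among these 9, so the 0 higher leaves it out, though on this total it reached 11.9 CPM in the cells and was 34.4-fold higher. Of the 11405 genes at 10 CPM or more on this total, 4260 were at least 2-fold lower and 3610 higher. Folds of single genes are ratios of CPM, given first for the total of all gene counts and then for the total without Rn45s and mitochondrial genes.

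Bmi1 differed most: 5.32 CPM in the summed cells (interval 4.44 to 6.33) against 702 ± 86.1 CPM in control embryos (SD, n = 9), 132-fold lower and 68.9-fold on the second total. Suz12 stood at 10.5 CPM (9.22 to 11.9) against 423 ± 111 CPM, 40.4-fold and 21.1-fold lower. Both are among the most abundant members in embryos. Kdm6b stood at 3.45 CPM (2.75 to 4.28) against 61.2 ± 9.21 CPM, 17.8-fold and 9.25-fold lower. Pcgf1 stood at 5.86 CPM (4.93 to 6.91) against 91.2 ± 13.9 CPM, 15.6-fold and 8.04-fold lower. Rnf2 stood at 20.1 CPM (18.4 to 22.0) against 301 ± 73.5 CPM, 15.0-fold and 7.77-fold lower. The factor of Kdm6b rests largely on cell 2, the source of most of its counts. Ezh2 stood at 17.2 CPM (15.6 to 18.9) against 212 ± 26.6 CPM, 12.3-fold and 6.41-fold lower. Kdm6a stood at 12.9 CPM (11.5 to 14.4) against 122 ± 34.9 CPM, 9.46-fold and 4.90-fold lower. Eed stood at 14.3 CPM (12.8 to 15.8) against 77.3 ± 16.8 CPM, 5.42-fold and 2.81-fold lower.

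Ezh1 and Ring1 did not follow. Ezh1 stood at 56.3 CPM (53.4 to 59.4) against 68.9 ± 20.8 CPM, 1.22-fold lower on the total of all gene counts and 1.60-fold higher on the second total, so its direction depends on the total. Ring1 was the only member higher in the cells on both totals: 4.66 CPM (3.83 to 5.60) against 0.270 ± 0.596 CPM, 17.2-fold and 34.4-fold higher. This rests on 112 counts in the cells and 6 in the control embryos, and its level in the cells is below that of the background genes on the first total. Relative to the median of all genes, Ezh1 and Ring1 were above and the other 8 members below under all 6 settings tried. Taking off that median cancels most of a change of total, so this agreement is no check on the choice of total. Per ERCC count, with the amount added to each kind of library not stated, the median log2 ratio of all genes was -4.80 and that of Ring1 was 0.26.

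**Figure D5:**
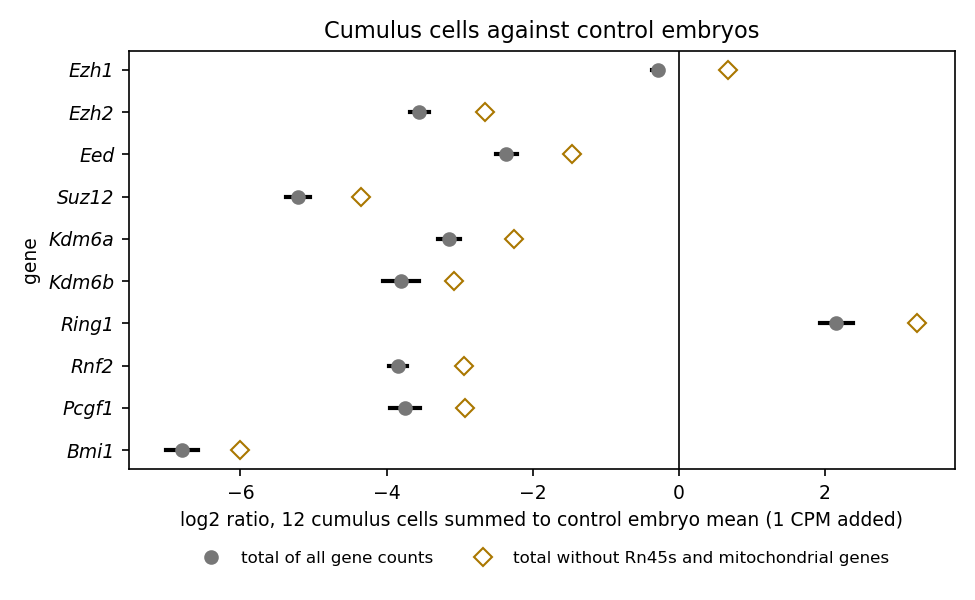
Log2 ratio of the 12 summed cumulus cells to the mean of the 9 control embryos, with bars for the 95% Poisson interval. Filled points use the total of all gene counts, open ones the total without Rn45s and mitochondrial genes. Bmi1 lies lowest (-6.80), Ring1 is the only gene above 0 on both totals, and Ezh1 lies on either side of 0.

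In single cumulus cells the members came and went. Ezh1 had counts in 11 of 12 cells (91.7%, exact binomial interval at 95% 61.5% to 99.8%) and Ring1 in 10 (83.3%, 51.6% to 97.9%). These intervals take the cells as independent and leave out any shared animal or culture, which no label names. Suz12 was seen in 9 cells, Rnf2 in 8, Ezh2, Eed and Kdm6a in 7 each, Pcgf1 and Bmi1 in 6 each, and Kdm6b in 5 (41.7%, 15.2% to 72.3%). Every cell had counts of Ezh1 or Ezh2: 6 of both, 5 of Ezh1 alone and 1, cell 8, of Ezh2 alone. Counts of Eed, Suz12 and at least 1 of the catalytic genes together were present in 6 cells. Each cell held 3 to 9 of the 10 members, with 3 in cells 7 and 10, the latter also the shallowest library. The part of depth in these absences was not tested. No cell type that should lack these genes is among the libraries, so no background share from free RNA is given.

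A few cells supplied much of some sums. Cell 8 gave 58.5% of the Ezh2 counts and 45.8% of the Eed counts. Without it the log2 ratio to control embryos was -4.56 in place of -3.55 for Ezh2 and -3.01 in place of -2.36 for Eed. Cell 2 gave 81.9% of the Kdm6b counts, and without it the ratio was -5.23 in place of -3.81. Cell 11 gave 49.8% of the Kdm6a counts (-3.95 in place of -3.15). For these 4 genes the leading cell raised the sum, so leaving it out could only lower the ratio further.

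Other Polycomb genes were read as a list of 41, all matched to a row. Of the 37 tested for HU, 0 passed, beside 0% of all genes. Their median log2 fold change was 0.02, with 20 above 0. In edgeR 1 of the 37 had an unadjusted p under 0.05, beside 669 of all 11476 genes (5.83%). That one was Pcgf5, a PCGF subunit of variant PRC1, named here as the largest rise of the list. It had 17.6, 32.2 and 166 CPM in the lowest, median and highest control embryo and 31.4, 154 and 409 CPM in HU embryos. A total of 7 of 8 HU embryos exceeded the control median and 4 the highest control. The log2 fold change was 1.58 ± 0.49 (SE; edgeR adjusted p = 0.84). Phc3, a Polyhomeotic subunit of canonical PRC1, had 11.7 ± 8.17 CPM over control embryos and 17.3 ± 18.9 CPM over HU embryos (SD; log2 fold change 0.56 ± 0.69, SE). Lower values in HU were those of Scml2 (-0.38 ± 0.26) and Phc1 (-0.35 ± 0.35), also PRC1-associated, as log2 fold change with SE.

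The most abundant gene of that list per length in control embryos was Phf1, an accessory subunit of PRC2, at 401 ± 94.8 FPKM (SD, n = 9). Next was AU022751, listed in RefSeq under the synonym Ezhip, whose protein inhibits PRC2, at 387 ± 157 FPKM, and then the histone-binding subunit gene Rbbp7 at 123 ± 47.8 FPKM. Phf1 and AU022751 thus had means above those of all 10 members, Bmi1 included. In HU embryos AU022751 had 747 ± 502 CPM against 854 ± 355 CPM in controls (log2 fold change -0.19 ± 0.37, SE). In cumulus cells AU022751 had 0 counts in all 12, which makes it at least 6831-fold higher in control embryos at a floor of 3 counts over the cells (0.125 CPM). Phf1 stood at 5.36 CPM in the cells (interval 4.48 to 6.37) against 980.1 ± 232 CPM (SD, n = 9). Rbbp7 stood at 276 CPM (269 to 283) against 280.0 ± 109 CPM and had counts in all 12 cells. Of the 33 listed genes at 10 CPM or more, 26 were at least 2-fold lower in the cells and 1, Phc3 (40.5 against 12.2 CPM), at least 2-fold higher. Pcgf2, with a log2 ratio of 1.71, was below that level on both sides and is not among the 33. Among all genes these shares were 54.8% and 17.4%. On the total without Rn45s and mitochondrial genes, 21 of the 33 were lower and 1 higher, beside 39.5% and 28.5% of all genes. The PRC1 gene Cbx7 had a log2 ratio of 0.02 on the first total and 0.92 on the second, and Rbbp7 had -0.02 and 0.94. The median log2 ratio of the list was -2.43 on the first total and -1.56 on the second, beside -1.25 and -0.35 for all genes.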

How the data were processed

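RNA was measured by Smart-seq2, a full-length method without molecular identifiers, in 29 libraries. Raw gene counts and FPKM values were deposited by the authors as separate tables. The submitters' processing notes name mm10, STAR 2.7.3a, FastQC and R 4.0.2. The counter, annotation and strandedness: not given in the sources used here. All 18588 genes counted in 2 libraries or more had a deposited FPKM equal to the count over the library total and a single gene length (tolerance 0.001), so FPKM adds no other normalization. The 92 ERCC rows were left out of totals and tests.

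HU and control embryos were compared with edgeR 4.0.16 (R 4.3.3; TMM, filterByExpr, quasi-likelihood F test, only the 17 embryos, no covariate), with Benjamini-Hochberg adjustment over all 11476 genes and a threshold of 0.05. Standard errors come from the F statistic. Alternatives were DESeq2 1.42.0, limma 3.58.1, other scalings, no filter, a replicate block and leaving out single libraries. The fit was tested on simulated data of 11036 genes. The 12 cumulus cells count as 1 sample. Ratios to embryos add 1 CPM. The second total for the related list was chosen after seeing the data.

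The members and the gene lists were chosen with earlier results of these data known. Named genes of the related list are those past the threshold or, with none, the 2 with the largest fold change each way at 10 CPM or more, the 3 most abundant per length, and the 2 with the largest ratio of cells to embryos each way; of the other lists, the 2 most abundant, Xist and Sfmbt2. Likeness was read for Ezh2 and Kdm6b alone, 3 genes each. Counts without strand cannot separate Kdm6b from its antisense Kdm6bos or Rnf2 from Trmt1l, which overlaps it on the opposite strand; Ezh2, Eed, Suz12 and Rnf2 also overlap noncoding or pseudogene loci in GENCODE M21. No 2 libraries had identical counts. Poisson intervals and floors cover counting error only. Binomial intervals cover the sampling of cells taken as independent, and edgeR intervals carry the spread between embryos.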

Additional observations from a re-analysis of the deposited data

Results flagged for a closer look

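Of 18 groups of embryos (9 tested members in 2 treatments), 2 held an embryo far from the others; chance alone gives about 1 such group in 20. Ezh2 in HU 4 stood at 354 CPM, with the next HU embryo at 253 CPM. HU 4 also had the highest Eed and the fewest detected genes of the embryos (12887), and the part of the latter was not tested. Bmi1 in HU 5 stood at 469 CPM, with the next HU embryo at 701 CPM.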

How the results depend on the processing

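Members called stayed at 0 under every alternative run. The count of all genes called was 3 with DESeq2 and ranged from 0 to 1 on leaving out single embryos (1 without HU 8). At an unadjusted p under 0.05, counts of genes higher and lower were 419 and 250 in the main test, 267 and 166 without HU 5, 42 and 18 with cumulus cells in the fit, 334 and 383 with limma-voom, and 1193 and 797 with no filter (19499 genes). Near 0, some fold changes turned sign: Ezh1 (0.13) was -0.065 with the replicate block, -0.015 with limma-voom and -0.029 on FPKM with limma, and Rnf2 (-0.05) was 0.15 with ERCC scaling. On leaving out single embryos, Ezh1 ranged from -0.052 to 0.26, Suz12 from -0.0082 to 0.15, Rnf2 from -0.11 to 0.028 and Bmi1 from -0.010 to 0.11. The cause was not tested. No pairing of embryos by replicate number was seen, though a weak shared effect could be missed. Correlations of same-numbered deviations ran from -0.10 to 0.19, with 0 of 8 best matched to their own number. The replicate block called 0 genes. For cumulus cells, the ratio of Ezh1 turned from -0.29 to 0.67 without Rn45s and mitochondrial genes in the total. Per ERCC count 9 members were at least 2-fold lower, Ezh1 (-3.87) included, but the median log2 ratio of all genes was -4.80 there. The share of all genes at least 2-fold lower is not given for that setting. Under the other alternatives run, over the same 9 members without Ring1, the counts were 8 lower and 0 higher. In the main setting 54.8% of all genes were lower and 17.4% higher. In control embryos, leaving out 1 embryo at a time, the log2 ratio per length ranged from 2.26 to 2.39 for Ezh2 to Ezh1, from 1.22 to 1.42 for Kdm6a to Kdm6b and from 0.86 to 0.97 for Bmi1 to Pcgf1. Depth limits Ring1 in embryos, with 6 counts in all controls.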

Other observations

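Genes known to respond to Polycomb marks were read as lists. Of 36 developmental regulators that Polycomb silences in many cell types, 16 had no count in any control embryo, 17 in any HU embryo and 26 in any cumulus cell. Cumulus cell libraries detected 4054 to 8629 of the 24448 genes, beside 12887 to 15421 in embryos. The share of all genes without a count was not taken, and a part of Polycomb in these absences was not tested. The 4 that passed the filter held 0 calls in the edgeR test, and 0 had an unadjusted p under 0.05. Among all genes these shares were 0% and 5.83%, so such counts set the 4 apart from no others. The most abundant was the endoderm and granulosa factor gene Gata4, at 133 ± 46.2 CPM over 9 control embryos and 153 ± 70.8 CPM over 8 HU embryos (SD), with counts in 11 of 12 cumulus cells. The homeobox gene Hoxa7 stood at 61.1 ± 16.6 CPM in HU embryos against 73.0 ± 11.5 CPM in controls, and had 0 counts in the cumulus cells. At a floor of 3 counts over the cells it was at least 586-fold higher in control embryos.

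Of 6 genes imprinted through oocyte H3K27me3 that matched a row, 5 were tested and 0 passed in the edgeR test, beside 0% of all genes. At an unadjusted p under 0.05 there were 0 of the 5, beside 5.83% of all genes. Jade1 stood at 67.2 ± 39.1 CPM in HU embryos and 71.2 ± 51.3 CPM in controls, Gab1 at 31.8 ± 13.8 against 30.8 ± 14.2 CPM and Sfmbt2 at 24.8 ± 24.0 against 20.5 ± 11.9 CPM (SD, n = 8 and n = 9). Sfmbt2 ran from 0 to 42.0 CPM over control embryos and from 0.747 to 62.0 CPM over HU embryos. Xist, which coats the inactive X chromosome, stood at 123 CPM in the summed cumulus cells (exact Poisson interval at 95%, 119 to 128) and at 25.8 ± 27.4 CPM in control embryos, where it ran from 0.424 to 84.3 TMM-scaled CPM.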
